A study of Mus musculus with 6 samples.

Results

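Interphase-only RBPJ peaks in introns were taken from the peak list of cycling F9 cells, as the peaks with no counterpart in the list of mitotic cells and with their center in an intron. There were 1372 such peaks among the 5206 peaks of the asynchronous list, and the lists of both populations together held 8433 peaks. The members were chosen by the distance from each asynchronous peak center to the nearest mitotic peak center, which had to exceed 250 bp. The center also had to lie inside an annotated transcript, outside every exon, outside promoters, which began 1 kb before a transcript start and ended 100 bp after it, and outside transcript ends, taken from 100 bp before the end to 1 kb after it. RBPJ had been immunoprecipitated, with a rabbit antibody raised against the mouse protein, from chromatin of mouse F9 cells, an embryonal carcinoma line from a testicular teratoma. Asynchronous cells were a growing culture of which, per the labels, 95% were in interphase and 5% in mitosis. Mitotic cells were arrested with nocodazole, a drug that depolymerizes microtubules. The series held 6 libraries, with 2 immunoprecipitations and 1 input for each population, and the first immunoprecipitation of each population had the peak list used here. "Interphase-only" therefore means that no mitotic peak was called nearby in a single mitotic list, and the strength of RBPJ signal at these places in mitosis was not measured.

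RBPJ is the DNA-binding protein through which Notch receptors control transcription. Without Notch signaling it sits on its sites with corepressors, and when Notch is cleaved the freed intracellular domain and a Mastermind coactivator join it and turn target genes on. CTCF is a zinc finger protein that binds a longer sequence and helps to fold chromosomes into loops. F9 cells resemble the undifferentiated cells of the early embryo and express factors of the pluripotency network.

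The sequences of 14 members are shown because their letters carry the results that follow. Each line gives the plus strand of mm9 over the whole peak, 173 bp long, in lower case, and capitals mark the RBPJ motif (TTCCCACA or TTCCCACG) or the CTCF motif (CCANNAGNNGGC). A motif on the minus strand appears as its reverse complement, so that capitals reading TGTGGGAA or CGTGGGAA are also RBPJ motifs. The members with the RBPJ motif and the highest scores lay in introns of Cmtm7 (chr9:114672543-114672715), Nmnat2 (chr1:154939131-154939303), C77080 (chr4:128928839-128929011) and 9830001H06Rik (chr2:156880327-156880499), and inside the annotated span of Gm20388 (chr8:126612072-126612244).
Cmtm7: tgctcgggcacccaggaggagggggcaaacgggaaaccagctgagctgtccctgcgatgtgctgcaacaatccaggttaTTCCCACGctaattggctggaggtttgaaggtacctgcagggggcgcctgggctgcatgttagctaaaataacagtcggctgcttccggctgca
Nmnat2: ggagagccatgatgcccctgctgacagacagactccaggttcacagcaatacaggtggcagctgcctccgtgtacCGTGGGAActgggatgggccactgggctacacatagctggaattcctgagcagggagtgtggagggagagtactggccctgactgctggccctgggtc
C77080: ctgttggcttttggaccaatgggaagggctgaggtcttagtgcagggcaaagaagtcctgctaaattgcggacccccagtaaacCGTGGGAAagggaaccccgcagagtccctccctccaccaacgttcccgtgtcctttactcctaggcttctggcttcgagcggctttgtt
9830001H06Rik: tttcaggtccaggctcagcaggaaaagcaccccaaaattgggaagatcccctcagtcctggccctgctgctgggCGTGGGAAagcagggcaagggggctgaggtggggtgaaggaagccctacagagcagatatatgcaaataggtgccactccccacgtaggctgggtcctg
Gm20388: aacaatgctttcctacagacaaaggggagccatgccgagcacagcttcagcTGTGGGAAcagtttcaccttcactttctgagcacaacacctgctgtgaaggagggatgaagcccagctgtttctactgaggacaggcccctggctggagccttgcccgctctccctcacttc

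The highest scoring members with the CTCF motif are shown next, to set the longer motif beside the RBPJ motif. They lay in introns of Ccdc88c (chr12:102190484-102190656), Doc2b (chr11:75589543-75589715) and Nosip (chr7:52323393-52323565), and the peak in Nosip held both motifs. A second member with both motifs, in Rassf3 (chr10:120864307-120864479), carried the same 12 letters of the CTCF motif as Nosip.
Ccdc88c: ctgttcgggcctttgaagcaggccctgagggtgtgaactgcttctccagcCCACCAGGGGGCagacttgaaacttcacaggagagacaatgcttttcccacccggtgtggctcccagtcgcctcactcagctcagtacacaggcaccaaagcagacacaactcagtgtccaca
Doc2b: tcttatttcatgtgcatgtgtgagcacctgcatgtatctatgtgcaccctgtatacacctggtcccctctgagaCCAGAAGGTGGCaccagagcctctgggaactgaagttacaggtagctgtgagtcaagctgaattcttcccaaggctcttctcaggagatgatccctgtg
Nosip: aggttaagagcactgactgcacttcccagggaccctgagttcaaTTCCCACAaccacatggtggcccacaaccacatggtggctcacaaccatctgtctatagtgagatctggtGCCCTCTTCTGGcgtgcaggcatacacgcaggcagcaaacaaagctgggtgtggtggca
Rassf3: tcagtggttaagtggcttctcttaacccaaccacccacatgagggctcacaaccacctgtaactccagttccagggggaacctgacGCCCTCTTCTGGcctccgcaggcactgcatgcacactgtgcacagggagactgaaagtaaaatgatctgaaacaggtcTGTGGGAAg

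The last set shows members of genes named for their roles, and members with a high score and neither motif. Maml3 (chr3:51826359-51826531) had a pair of RBPJ motifs, and single RBPJ motifs stood in Esrrb (chr12:87804010-87804182) and Nr5a2 (chr1:138843814-138843986). The peaks in Nes (chr3:87778340-87778512) and Mid1 (chrX:166437202-166437374) have no capitals because no full motif was found.
Maml3: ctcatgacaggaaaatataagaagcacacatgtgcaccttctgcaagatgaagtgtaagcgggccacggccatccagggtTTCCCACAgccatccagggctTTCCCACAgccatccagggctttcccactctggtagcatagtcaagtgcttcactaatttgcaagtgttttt
Esrrb: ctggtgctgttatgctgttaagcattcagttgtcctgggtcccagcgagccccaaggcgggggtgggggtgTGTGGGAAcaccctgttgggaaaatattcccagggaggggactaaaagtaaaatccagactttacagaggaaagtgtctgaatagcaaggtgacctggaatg
Nr5a2: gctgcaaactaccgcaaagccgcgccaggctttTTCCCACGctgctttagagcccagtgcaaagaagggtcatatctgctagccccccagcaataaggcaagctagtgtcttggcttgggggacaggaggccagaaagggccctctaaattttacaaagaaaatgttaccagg
Nes: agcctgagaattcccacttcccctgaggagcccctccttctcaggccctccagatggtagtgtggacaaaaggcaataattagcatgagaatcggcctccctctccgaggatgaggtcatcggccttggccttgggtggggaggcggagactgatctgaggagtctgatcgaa
Mid1: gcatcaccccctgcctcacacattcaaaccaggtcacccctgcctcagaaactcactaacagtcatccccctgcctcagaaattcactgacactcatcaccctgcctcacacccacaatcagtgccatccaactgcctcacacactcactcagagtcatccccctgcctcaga

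The score is the value that the authors deposited with each peak, and it was used only to rank peaks within a list. The labels do not define it, so a higher score is not read as a set amount of binding. Over the 1372 members it ran from 10.1 to 42.2 with a median of 11.8, and 761 members (55.5%) were within 20% of the lowest score. Of all asynchronous peaks 2799 (53.8%) were within that margin, so this closeness to the lowest score belonged to the whole list. The score of all asynchronous peaks had the same median, 11.8, and reached 58.3. In all, 1465 asynchronous peaks had their center in an intron, and 1372 of these (93.7%) had no mitotic center within 250 bp, beside 91.8% of all asynchronous peaks. That contrast chose the members, so nothing was read from these shares. The paper compared enrichment in both populations, which is another measure, and reported most asynchronous sites as also occupied in mitotic cells. The shares by distance are therefore not shares of sites lost in mitosis. The 93 intron peaks with a mitotic center within 250 bp had a median score of 12.7.

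Few members lay near the limit of the rule. The closest mitotic center was 267 bp from the member in Zfp516 (score 11), 331 bp from that in Gpr124 (score 14.8) and 335 bp from that in Ppap2b (score 16.5). Just inside the limit, and therefore not members, were peaks in Nrxn3 at 225 bp (score 10.6), again in Nrxn3 at 208 bp (score 11.4) and in Cux2 at 202 bp (score 14.4). Of all members, 8 had the nearest mitotic center 250 to 500 bp away and 13 had it 500 bp to 1 kb away, while 626 (45.6%) had none within 100 kb. The median distance was 83252 bp.

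The highest scoring member was in intron 2 of Nes, which encodes nestin, an intermediate filament protein of neural progenitors. Its score was 42.2, the rank 6 of the whole asynchronous list, and the nearest mitotic center was 63766 bp away. The window in Nes held the short sequence TTCCCA at -73.5 bp from the center, but no full RBPJ motif. Next came the peak inside the span of Gm20388 with a score of 41.4 and the motif TTCCCACA at -31.5 bp from its center. That peak counts as intronic only through a single transcript model, whose intron 1 is 4384418 bp long, and the nearest annotated transcript start was 64864 bp away. Cmtm7, which encodes a transmembrane protein of the chemokine-like factor family, had a peak in intron 1 with a score of 36.3. Its motif TTCCCACG lay at -3.5 bp from the center, where negative positions are to the left on the plus strand.

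Esrrb, an orphan nuclear receptor of the pluripotency network, had members of score 34.2 and 30 in its introns 2 and 3. Neither held the full RBPJ motif, while the short sequence TTCCCA was present in both. Mid1, a microtubule-associated ubiquitin ligase gene at the end of the X chromosome, had a member of score 33.3 in intron 9. Its sequence was repetitive, and its commonest word of 8 bases occurred 6 times in the window, where that count was at most 3 in the other members named for their score or motif. Nmnat2, which encodes an enzyme of NAD synthesis, had its peak in intron 7 with a score of 32.9 and the motif TTCCCACG at -7.5 bp. In C77080 (score 29.5) and 9830001H06Rik (score 28.3), the same 8 letters lay at 1.5 and -8.5 bp. The 10 highest scoring members ended with the peak of score 27.9 in intron 54 of Lrp1, an endocytic receptor gene. Of these 10, 5 held the RBPJ motif and 0 held the CTCF motif, beside 9.91% and 13.8% of all members, and 10 peaks are too few to read the 0 as a difference. In 4 of those 5 the motif was the form ending in G.

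The RBPJ motif was found in 136 of the 1372 members (9.91%, 95% interval 8.38 to 11.6%), beside 9.09% of all asynchronous peaks. In windows of the same width 2 kb to the left and right of the members it was found in 44 of 2744 (1.60%). The members thus held the motif more often than the sequence around them, and about as often as the list they came from. The shorter sequence TTCCCA was present in 526 members (38.3%) and in 17.6% of the flanking windows. The form TTCCCACA accounted for 86 motif matches in 84 members and TTCCCACG for 54 matches in 54 members.

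The CTCF motif was found in 189 members (13.8%, 12.0 to 15.7%), beside 11.1% of all asynchronous peaks and 40 of 2744 flanking windows (1.46%). In the highest scoring case, Ccdc88c, which encodes a Dishevelled-binding protein, the score was 26.2 and the motif CCACCAGGGGGC lay at -30.5 bp from the center. Doc2b, a calcium sensor of vesicle release, followed with a score of 25.3 and the motif CCAGAAGGTGGC at -6.5 bp. Over all members, the CTCF motif as searched was thus found in more intron peaks than the RBPJ motif as searched. That order depends on the patterns chosen, since the CTCF pattern leaves some positions free. With the shorter RBPJ sequence the share was 38.3%, against 18.4% for CTCF with a looser core. Among the 343 members with the highest scores the order of the motifs as searched was the other way, with 18.1% for RBPJ and 13.4% for CTCF. The RBPJ motif alone was present in 123 members, the CTCF motif alone in 176, and both in 13. Neither was present in 1060 members (77.3%, 74.9 to 79.5%), of which 330 held TTCCCA. Members with the RBPJ motif alone had a median score of 13.5, those with the CTCF motif alone 11.8, and those with neither 11.4.

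**Figure D1:**
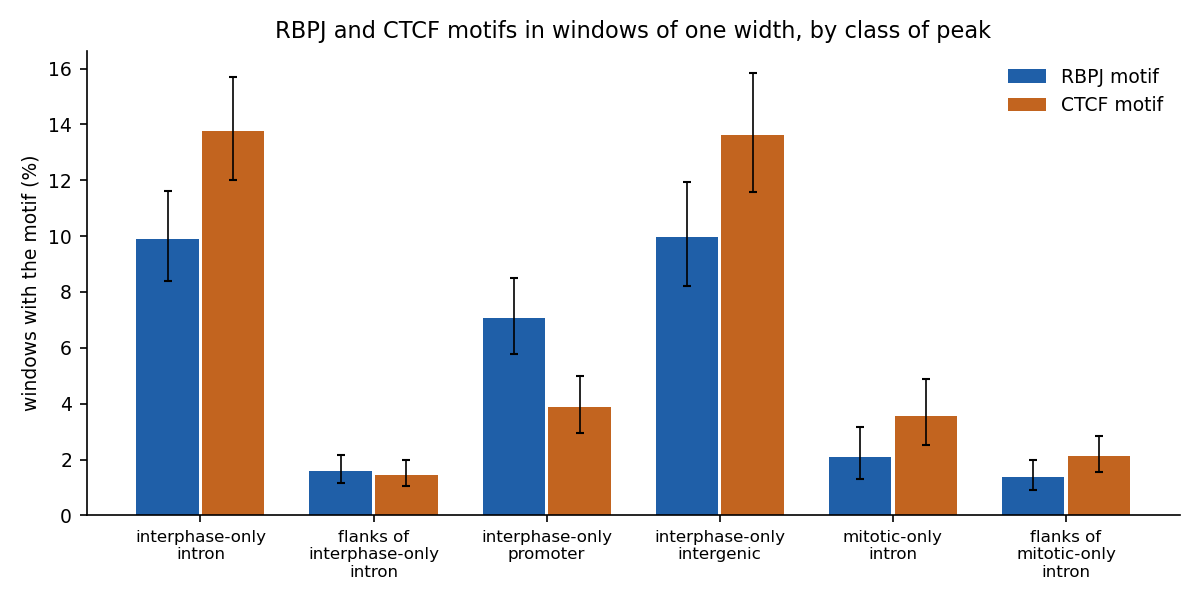
Percentage of 173 bp windows with the RBPJ motif (blue) or the CTCF motif (orange) in interphase-only intron peaks, in the compared classes of peak and in windows 2 kb away, with exact 95% intervals. Interphase-only intron and intergenic peaks stand highest for both motifs. In mitotic-only intron peaks the RBPJ share is 2.08%, against 1.39% in their flanks. The CTCF share is 3.56% there, against 2.13% in the flanks.

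Interphase-only intron peaks were compared with 1445 interphase-only promoter peaks, 1043 interphase-only intergenic peaks and 1011 mitotic-only intron peaks, which follow the same rule with the lists exchanged. Each comparison used a two-sided Fisher's exact test, and p-values were adjusted by the Benjamini-Hochberg method over 10 tests. The tests compare lists of peaks from single libraries, and intervals cover counting error only. Against mitotic-only intron peaks, of which 21 (2.08%) held the RBPJ motif, the odds ratio was 5.19 (3.25 to 8.28, Fisher's exact p = 5.80e-16, adjusted p = 1.93e-15). For the CTCF motif, found in 36 mitotic-only intron peaks (3.56%), it was 4.33 (3.00 to 6.24, adjusted p = 4.15e-18 by Fisher's exact test). Intron peaks called in cycling cells alone therefore held either motif more often than intron peaks called in mitotic cells alone. In the members the RBPJ and CTCF shares were 9.91% and 13.8%, beside 9.09% and 11.1% of all asynchronous peaks. Motif shares over all mitotic peaks are not given here, so the difference is not read as particular to introns. Of the mitotic-only intron peaks, 872 (86.3%) were within 20% of the lowest score in the mitotic list, against 55.5% of the members in the asynchronous list. Over all peaks these shares were 79.5% in the mitotic and 53.8% in the asynchronous list, so the lists as a whole differed in the same way. Among peaks at or above the median score of their own list the odds ratios were 7.64 for RBPJ and 3.97 for CTCF. The medians, 11.8 in the asynchronous and 10.9 in the mitotic list, were themselves within 20% of the lowest score. That cut therefore kept peaks near the lowest score, and whether the contrast holds away from it was not tested. With the shorter sequence TTCCCA the RBPJ odds ratio fell to 2.72.

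Of the tested motifs, CTCF had the larger odds ratio between intron and promoter peaks. It was found in 56 of the interphase-only promoter peaks (3.88%), which gave an odds ratio of 3.96 (2.91 to 5.39, adjusted p = 2.57e-20 by Fisher's exact test) in favor of introns. The RBPJ motif was present in 102 of them (7.06%), and the odds ratio for introns was 1.45 (1.11 to 1.89, p = 0.00670 and adjusted p = 0.0112 by Fisher's exact test). The second difference passed the threshold less securely, since in windows reaching 50 bp to either side of the center the odds ratio was 1.39 with an adjusted p of 0.0613. Promoter windows held a median of 9 CpG dinucleotides against 3 in the members, and the part of base composition in these differences was not tested. Median GC content was 56.6% in promoter peaks, 55.5% in the members and 48.0% in the members' flanking windows.

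Intron and intergenic peaks could not be separated by either motif. Among interphase-only intergenic peaks 104 (9.97%) held the RBPJ motif and 142 (13.6%) the CTCF motif. The odds ratio was 0.993 for RBPJ (0.759 to 1.30, adjusted p = 1 by Fisher's exact test) and 1.01 for CTCF (0.802 to 1.28, adjusted p = 1 by Fisher's exact test). The intervals still allow odds up to 1.30 and 1.28 times as high in introns, so a small difference could have been missed.

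Among the 343 members with the highest scores 62 (18.1%) held the RBPJ motif, against 24 of the 343 with the lowest scores, and the odds ratio was 2.93 (1.78 to 4.82, p = 1.53e-05 and adjusted p = 3.82e-05 by Fisher's exact test). The CTCF motif was found in 46 (13.4%) and 44 (12.8%) of them, an odds ratio of 1.05 (0.676 to 1.64, adjusted p = 1 by Fisher's exact test). Higher scoring intron peaks thus held the RBPJ motif more often, and no such difference was detected for the CTCF motif. Whether the motifs differ from each other in this respect was not tested. With the members cut by score into 10 groups of nearly equal size, the RBPJ share was 20.3% in the highest group and 5.84% in the lowest.

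**Figure D2:**
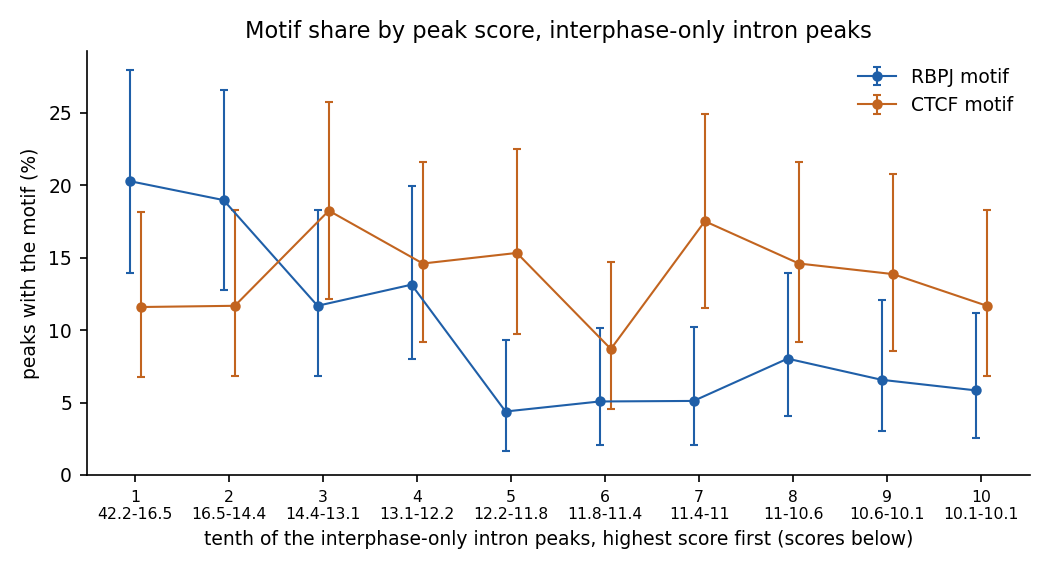
Percentage of interphase-only intron peaks with the RBPJ motif (blue) or the CTCF motif (orange) in 10 groups of the members ranked by score, with exact 95% intervals and the scores of each group below. The RBPJ share lies between 11.7 and 20.3% in the 4 highest groups and between 4.38 and 8.03% in the 6 others, and the CTCF share lies between 8.70 and 18.2% throughout.

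Motifs of both kinds gathered near the peak centers. The RBPJ motif closest to the center was a median of 27 bp away, and 65 of the 136 members with it (47.8%, 39.2 to 56.5%) had it within 25 bp, where an even spread over the window would give 30.1%. For CTCF the median was 24.5 bp, and 99 of 189 members (52.4%, 45.0 to 59.7%) had the motif within 25 bp, against an even share of 30.9%. No preferred strand relative to the host gene could be shown for either motif. RBPJ motifs had the strand of the host in 55 of 131 members with hosts in a single direction (42.0%, 33.4 to 50.9%), and CTCF motifs in 83 of 180 (46.1%, 38.7 to 53.7%).

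**Figure D3:**
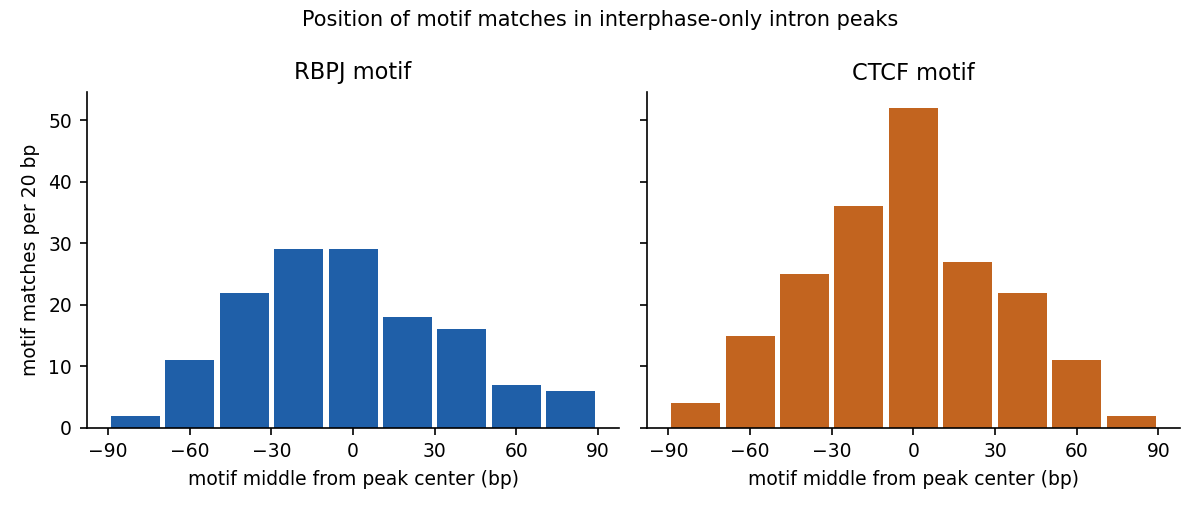
Number of matches of the RBPJ motif (left) and the CTCF motif (right) per 20 bp of distance between the middle of the motif and the center of the interphase-only intron peak. Both histograms are highest near the center, where the bin from -10 to 10 bp holds 29 RBPJ matches, as many as the bin to its left, and 52 CTCF matches.

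Pairs of RBPJ motifs were rare. They were found in 4 members, which are the introns of Dpf1, Etl4, Lama1 and Maml3, with gaps of 56, 86, 54 and 13 bp between the motifs. Maml3 encodes a Mastermind-like coactivator, a partner of RBPJ itself in the active Notch complex, and its motifs had the same orientation. In the printed sequence of Maml3 each motif is followed by the same stretch of lower-case letters, and a word of 8 bases occurs 3 times in the window. The peak in Maml3 had the lowest score of the list, 10.1.

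To see how far motifs stood in repeated sequence, the 20 bases around each motif were counted over the whole genome, a step added after seeing the sequences. Around 154 of the 189 CTCF-motif members and 131 of the 136 RBPJ-motif members those 20 bases occurred once. They occurred 10 or more times for 12 CTCF members (6.35%, 3.32 to 10.8%) and 1 RBPJ member. In the flanking windows, 15 of the 40 with a CTCF motif (37.5%, 22.7 to 54.2%) were of that kind. The authors kept reads that align to a single place, which acts on peaks and not on flanking windows, so these shares were not compared. The commonest form of the CTCF motif, CCAGAAGAGGGC, was found in 23 members, and its 20 bases occurred from 1 to 1037 times with a median of 6. Rassf3, a Ras association domain gene, carried this form in a stretch found 238 times. In Nosip, a gene named for binding nitric oxide synthase, the stretches around the RBPJ and CTCF motifs occurred 26 and 14 times. The kind of repeat was not identified here.

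Other motifs were counted without a test. The motif GGGTGTGG of KLF factors was present in 82 members (5.98%, 4.78 to 7.36%) and 1.79% of the flanking windows. Its share was 2.87% in mitotic-only intron peaks and 1.80% in interphase-only promoter peaks. It was 5.56% in interphase-only intergenic peaks and 4.32% in all asynchronous peaks. The E-box CACGTG was present in 102 members (7.43%, 6.10 to 8.95%), 2.81% of the flanks and 3.26% of mitotic-only intron peaks. It was found in 10.8% of promoter peaks, 7.77% of intergenic peaks and 8.72% of all asynchronous peaks. Both had higher shares in the intron peaks than beside them, and neither was particular to introns. Median GC content was 55.5% in the members and 48.0% in their flanking windows. The part of base composition in differences between members and flanks, for any motif, was not tested. The SOX motif ACAAAG was found in 12.6% of members and 13.1% of flanks. Members, flanks and all asynchronous peaks held the ESRRB motif TCAAGGTCA in 1.60%, 0.620% and 1.36%, and the octamer ATGCAAAT of POU factors in 1.24%, 0.510% and 1.09%. For the AP-1 motif TGACTCA these shares were 4.52%, 2.99% and 3.61%, and for the TEAD motif GGAATG 12.5%, 8.05% and 11.4%. The members were thus close to their own list in these motifs, and in mitotic-only intron peaks the shares were 0.593% for ESRRB, 0.396% for the octamer, 4.25% for AP-1 and 11.0% for TEAD. The intervals of members and flanks overlapped for the octamer and for AP-1, and also for SOX, ETS and SP. The ETS motif CCGGAAGT was found in 8 members (0.583%), 6.51% of promoter peaks and 2.36% of all asynchronous peaks, and the SP motif GGGGCGGGG in 11 members (0.802%), 3.18% and 1.77%. In these motifs the members were below their list. These letters describe the windows and do not show that a factor was bound.

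Intron members lay closer to transcript starts than intron sequence does as a whole. Within 1 kb of a start there were 170 members (12.4%, 10.7 to 14.3%), where 2.39% of all intron bases lie. Beyond 100 kb there were 35 (2.55%, 1.78 to 3.53%), against 11.0% of intron bases. The median distance to the nearest start was 7193.5 bp. A first intron of at least 1 transcript held 734 members (53.5%, 50.8 to 56.2%), against 39.1% of intron bases, and 42.6% were in intron 1 when only the longest host transcript was read. Mitotic-only intron peaks had similar shares in a first intron (53.5%) and within 1 kb of a start (11.3%). From 1 to 10 kb their share was 40.9%, against 45.4% of the members. Beyond 100 kb it was 4.15%, against 2.55%.

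**Figure D4:**
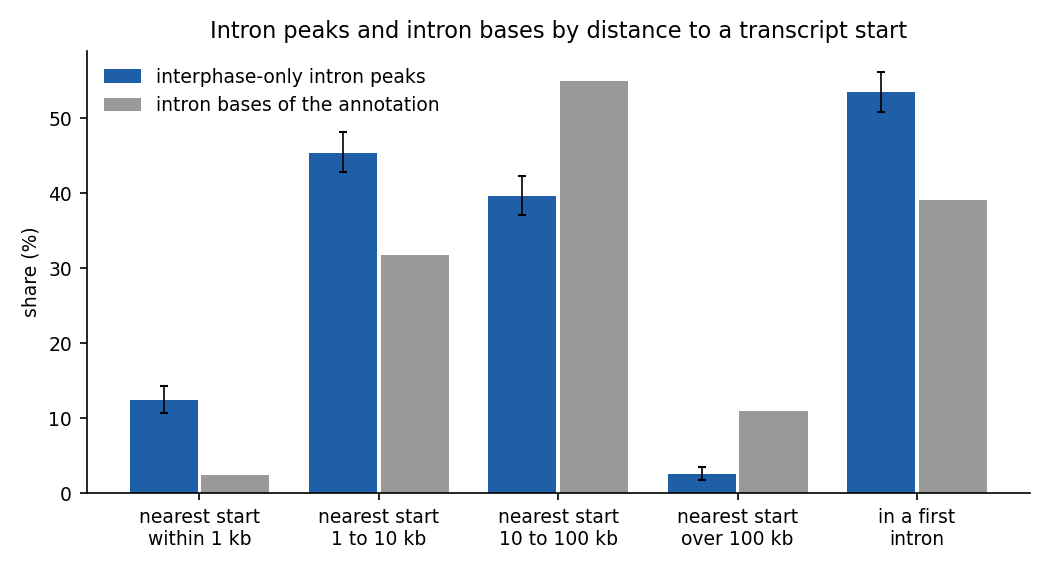
Percentage of interphase-only intron peaks (blue, with exact 95% intervals) and of all intron bases in the annotation (gray) by distance to the nearest transcript start, and the percentage in a first intron. Peaks exceed bases within 10 kb of a start and in first introns, and fall below them beyond 10 kb.

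First and later introns differed in the CTCF motif. It was found in 78 of the 734 first-intron members (10.6%) and in 111 of the 638 others (17.4%), and the odds ratio was 0.565 (0.413 to 0.771, p = 0.000298 and adjusted p = 0.000596 by Fisher's exact test). For the RBPJ motif the shares were 11.3% and 8.31%, an odds ratio of 1.41 (0.980 to 2.02) that did not pass the threshold (adjusted p = 0.100 by Fisher's exact test). By distance, the CTCF share was 5.88% (2.86 to 10.6%) among the 170 members within 1 kb of a start, 13.8% from 1 to 10 kb and 15.8% from 10 to 100 kb. The RBPJ share was 9.41%, 10.4% and 9.56% over the same ranges. CTCF motifs were thus scarcer in the intron peaks next to starts, while the RBPJ share was nearly level.

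Introns of 1133 genes held a member, 4.54% of the 24955 genes with an intron, and 947 of these genes held a single member. Host genes were long, with a median length of 50.5 kb against 15.2 kb over all genes with an intron. Another asynchronous peak lay within 10 kb of 321 members (23.4%). That share was not counted over all asynchronous peaks, so it is not read as a feature of intron members.

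The genes with the most members include annotation that spans several genes. Gm20388 had 31, of which 23 were in no other intron, and Fgfr2, a fibroblast growth factor receptor, had 11, of which 9 lay in an intron of 2956986 bp. In all, 5 transcripts had an intron over 1 Mb, and 26 members (1.90%) were intronic only through them. Rnf220, a ubiquitin ligase gene, had 6 members with scores from 13.9 to 24.9, and 2 of these held the RBPJ motif. Trak1, an adaptor for moving mitochondria, and Msi2, an RNA-binding protein of stem cells, also had 6 each. In Nmnat2 there were 5 members, from the peak of 32.9 shown above down to 10.1. The paper displays this part of Nmnat2 in a figure whose title speaks of RBPJ binding in both populations. In the list used here, the nearest mitotic center was 241310 bp from the peak of 32.9. The paper sorted peaks as common or specific by their enrichment in both populations, which is another measure than the distance between centers. Within the spans of these genes, mitotic-only intron peaks numbered 34 in Gm20388, 4 in Rnf220, 3 in Trak1, 2 in Msi2 and 0 in Nmnat2 and Fgfr2. Grik3, a kainate receptor subunit, and Cacna1a, a calcium channel subunit, had 5 each, with 1 mitotic-only intron peak in both. Esrrb had 4 members and 2 mitotic-only intron peaks.

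Genes of the pluripotency network held the largest share of hosts among the gene lists examined. Of its 49 genes, 8 had a member (16.3%, 7.32 to 29.7%), beside 4.54% of all genes with an intron. The median length of the 49 genes was 11.7 kb, against 15.2 kb over all genes with an intron. The 4 members in Esrrb scored 34.2, 30, 16.5 and 16, and the lower scoring pair held the RBPJ motif, at -11.5 and -7.5 bp from the center. Tet2, which encodes a dioxygenase of methylated cytosine, had 3 members in intron 1 with scores of 16, 11 and 10.1, and the second of these held the motif. In Nr5a2, a nuclear receptor gene, the member of score 15.2 in intron 3 held the motif TTCCCACG at -49.5 bp from the center. Zfp42, known as Rex1, had members of 12.2 and 10.6, and neither held a full motif. Single members of score 12.2 stood in Tet1, a relative of Tet2, in Jarid2, a Polycomb cofactor, and in Klf5, while Eras, a Ras-like gene of embryonic stem cells, had a member of score 11. The list was small and its interval wide, and the shares of genes were not tested.

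Notch pathway genes were hosts in 6 of 70 cases (8.57%, 3.21 to 17.7%), with 8 members, and the interval includes the 4.54% of all genes with an intron. The median length of the Notch genes was 30.5 kb, against 15.2 kb over all genes with an intron. Dtx1, a ubiquitin ligase that regulates Notch, had members of 19.4 in intron 2 and 16.9 in intron 3. Ctbp2, a corepressor, had members of 19 and 14.4 in intron 1, 7267 and 8338 bp from its start, which are also inside introns of Fgfr2, the gene of the longer transcript, and count for both genes. The corepressor gene Hdac1 had a member of 11, and the acetyltransferase gene Kat2b and the coactivator gene Maml3 each had a member of 10.1. The pair of motifs in Maml3 made it the member of this list with the RBPJ motif.

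Chromatin regulators were hosts in 8 of 100 cases (95% interval 3.52 to 15.2%), an interval that includes the 4.54% of all genes with an intron. Their median length was 46.3 kb, against 15.2 kb over all genes with an intron. Their members scored from 13.1, in the Polycomb gene Cbx7, to 10.1, in the Polycomb gene Phc2, which held the list's RBPJ motif. Chd9, a chromatin remodeler, had 3 members, all in intron 2 and without a motif. Single members stood in the remodeler genes Smarcc1 (score 12.2) and Arid1b (11), in the demethylase gene Kdm2a (11.8), in the deacetylase gene Hdac11 (11) and in the methyltransferase gene Dot1l (10.6). The median of all intron members was 11.8, and Cbx7 and Smarcc1 were above it.

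Wnt pathway genes were hosts in 4 of 86 cases (4.65%, 1.28 to 11.5%), beside 4.54% of all genes with an intron and with a median length of 33.8 kb. Ror2, a receptor for Wnt ligands, had members of 19 and 11.4, Prickle1 and Vangl1, genes of planar cell polarity, had members of 17.7 and 13.5, and the ligand gene Wnt6 had members of 13.5 and 13.1. Among developmental transcription factors, 10 of 147 genes were hosts (6.80%, 3.31 to 12.2%), with a median length of 13.1 kb. The highest scores were 19 in Tead4, a trophectoderm factor, 16.9 in Lmx1b, a LIM homeodomain factor, 16 in Meis2 and in Pax5, and 15.6 in Sox5. A member of score 13.5 in Rara, the retinoic acid receptor gene, was picked out after its values were seen, because it held the CTCF motif, the single case among the gene lists.

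Chromosomes differed in how densely their introns were filled. There were 1.49 members per Mb of intron over all chromosomes, 3.65 on chromosome 8, which held 166 members, 2.25 on chromosome 11, 2.24 on chromosome 4 and 0.200 on the X. Mitotic-only intron peaks were also densest on chromosome 8, with 4.11 per Mb against 1.10 over all. Without the transcripts that have an intron over 1 Mb, chromosome 8 still had 3.31 members per Mb. The highest density was thus on chromosome 8 in both lists. The densest window of 5 Mb, from 120 to 125 Mb on chromosome 8, held 28 members, and it overlaps the span of Gm20388. The amount of DNA from each chromosome in these cells was not measured here, since the inputs were not used.

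**Figure D5:**
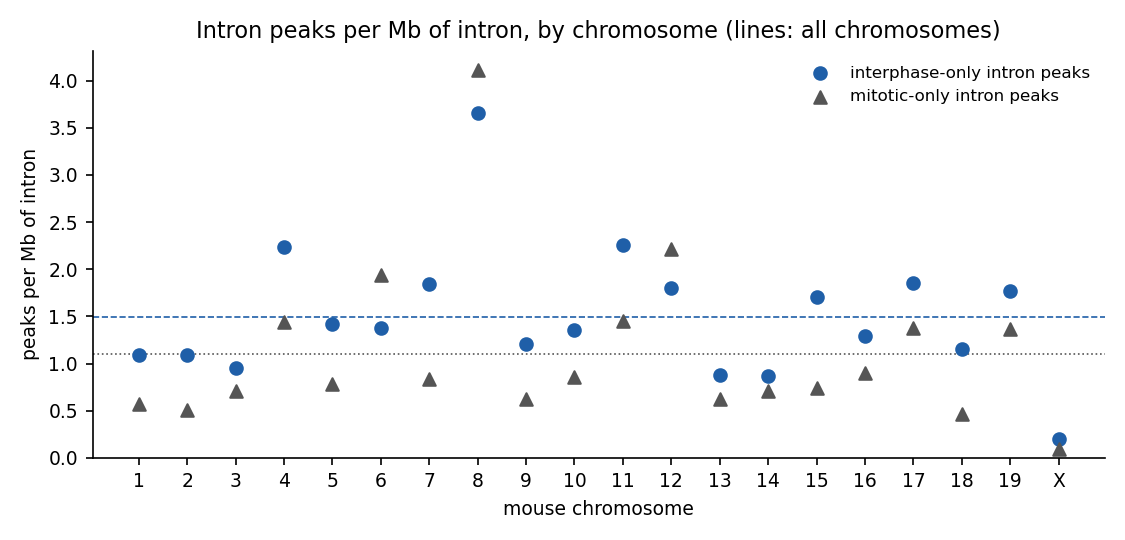
Interphase-only intron peaks (blue circles) and mitotic-only intron peaks (gray triangles) per Mb of intron for each autosome and the X, with dashed and dotted lines at the values over all chromosomes. Chromosome 8 stands highest in both, at 3.65 and 4.11, and the X lowest, at 0.200 and 0.0890.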

How the data were processed

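The authors aligned reads to mm9 with Bowtie 0.12.7 and used HOMER (version not stated) for peak calling, with the input as control. Each deposited list gives positions and a score per peak, and the authors' score was used within a list only. A single list per population, from the first immunoprecipitation, was used, so intervals cover counting error and leave out variation between cultures. The second immunoprecipitations and the inputs were not used here, and the lists give no read depth. Asynchronous peaks were 173 bp and mitotic peaks 203 bp wide, and every motif search used 173 bp around the center, on both strands. Introns came from the GENCODE annotation of NCBIM37, the same assembly as mm9, with 95414 transcripts, and classes were assigned by peak center in the order promoter, transcript end, exon, intron, distal promoter (from 10 kb before a start to 1 kb after it) and intergenic. Where several genes held a center, the host named for a member was the gene of the longest protein-coding transcript, while counts of genes with a member, by gene and by list, include every gene with an intron around the center. Intervals at 95% are Clopper-Pearson for shares and Woolf for odds ratios, and the 10 Fisher's exact tests were adjusted together, with a threshold of 0.05. The copies of each 20-base stretch were counted on both strands of the genome. Python 3.11.15, numpy 2.4.6, pandas 2.3.3, scipy 1.17.1, pysam 0.24.0 and matplotlib 3.10.9 were used, and the functions were tested on simulated data.

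The members and lists were chosen with earlier results of these data known. Named were the 10 highest scoring members, the 5 highest with the RBPJ motif, the 3 highest with the CTCF motif, up to 3 with both, at most 10 of the hosts with 4 or more members, members hosted by the 5 gene lists (Notch pathway, pluripotency, Wnt pathway, chromatin regulators and developmental transcription factors; the 5 highest scoring where a list had over 8 hosts), loci the paper names that met the rule, and 3 peaks on either side of the distance limit. Some items that met these rules are left out of the text. Ties kept the order of the list. Alternatives changed the motif, the window, the distance limit, the annotation, the score minimum and the chromosomes.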

Additional observations from a re-analysis of the deposited data

How the results depend on the processing

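Over the alternative settings, 103 values kept direction and call or, for counts and shares, stayed near the main value. The comparison with intergenic peaks, which passed no threshold, crossed 1 in some settings without passing it: for RBPJ the odds ratio was 1.07 with the sequence TTCCCA, 1.01 without the sex chromosomes, 1.11 with protein-coding genes, 1.11 at or above the median score and 1.02 without motifs in recurring sequence, and for CTCF it was 0.941 with a looser core, 0.976 in the 50 bp window, 0.976 at or above the median score, 0.978 without chromosomes 8 and 12, 0.989 without introns over 1 Mb and 0.980 without motifs in recurring sequence. The CTCF ratio of highest to lowest scores gave 0.775 without chromosomes 8 and 12 and 0.974 without introns over 1 Mb, and the RBPJ ratio of first to later introns gave 0.971 with TTCCCA. The RBPJ ratio to promoter peaks lost its call in the 50 bp window (1.39, adjusted p = 0.0613 by Fisher's exact test). At or above the median score there were 708 members in place of 1372, and 13.4% held the RBPJ motif. The RBPJ share was 38.3% with TTCCCA and 7.36% in the 50 bp window, the CTCF share 18.4% with the looser core and 10.8% in the 50 bp window, and the first-intron share 42.6% in the longest host transcript. The cause was not tested. Leaving out chromosomes 8 and 12, introns over 1 Mb and recurring motifs was chosen after seeing the data. Leaving out repeat-masked peaks was not run, because the genome used here does not mark repeats. No paired analysis was possible because the populations share replicate numbers but only replicate 1 of each has a peak list. Most asynchronous peaks (53.8%), like most members (55.5%), scored near the lowest score of the list, the mitotic list is shorter, and absence from the mitotic list is no measure of absent binding.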
